A study of Mus musculus with 8 samples.

Results

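The RAS-MAPK pathway and its feedback genes were followed in sorted Dct-GFP+ cells of the melanocyte lineage from mouse skin. Bmi1, which was deleted in 4 of the 8 libraries, encodes a Polycomb protein that helps keep genes silent. The set was fixed by name and holds 34 genes among the 54418 of the count table. It comprises 4 FGF receptors, 4 kinases of the RAF-MEK-ERK chain, 3 RAS GTPase-activating proteins, 11 dual-specificity phosphatases (DUSP), 4 Sprouty genes, 3 SPRED genes and 5 ETS transcription factors. All 34 were found by symbol, and 32 had enough counts to be tested.

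The study compared 4 Bmi1-deleted with 4 control libraries of RNA from dorsal skin taken at postnatal day 21. Both groups were Bmi1 fl/fl on a mixed C57Bl-6;129Sv background, carried the transgenes Dct-rtTA and TRE-H2B-GFP and were fed doxycycline, so a histone-GFP reporter came on where the Dct promoter drives rtTA. The Bmi1-deleted mice also carried Tyrosinase-Cre, which acts only where the tyrosinase promoter does, and the controls carried no Cre. Cells negative for DAPI and autofluorescence and positive for GFP were sorted, and no label says whether each library came from its own mouse, so a p-value here reflects library-to-library spread, which may be technical.

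In melanocytes, signals from receptor tyrosine kinases load RAS with GTP, and RAS then drives the kinases RAF, MEK and ERK in turn. ERK activity switches on its own brakes: DUSP phosphatases strip phosphate from MAP kinases, Sprouty and SPRED proteins act above RAF, and ETS factors carry part of the transcriptional response. The pathway is known in this lineage because KIT signals through it and because BRAF, NRAS and NF1 are frequently mutated in melanoma.

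Libraries held 9076517 to 10368174 counts in the Bmi1-deleted group and 8882656 to 9466711 in the control group. Bmi1 stood at 68.8 to 70.8 CPM (counts scaled to library size by TMM) in Bmi1-deleted libraries and at 75.4 to 97.2 CPM in control libraries. Its groups did not overlap, but it did not pass the test across genes (log2 change −0.26, SE 0.12, edgeR adjusted p = 0.607), and whole-gene counts include reads outside any deleted exons. In the deposited TPM, which are scaled for transcript length, Bmi1 averaged 13.4 in Bmi1-deleted and 30.4 in control libraries. On that scale the median log2 change of all genes was −0.14. All 10 melanocyte markers were detected, with sums of 5161 to 10840 CPM in Bmi1-deleted libraries and 9119 to 15160 CPM in control libraries. Sums of 12 fibroblast markers were 7416 to 16890 CPM in Bmi1-deleted libraries and 4582 to 7660 CPM in control libraries. Most of that sum was collagen: Col3a1, Col1a1 and Col1a2 averaged 5349, 3131 and 2564 CPM in Bmi1-deleted libraries. Of the 11 fibroblast markers tested, 10 had a log2 change above 0 and 1 below. The exception, Fbln1, was at 59.9% of the control mean and lower in 4 of 4 same-numbered pairs. Sums of 6 Schwann cell markers were 3528 to 4579 CPM in Bmi1-deleted and 1953 to 3377 CPM in control libraries. Keratinocyte markers overlapped between the groups, at 2009 to 4042 CPM in Bmi1-deleted and 2113 to 2474 CPM in control libraries. Endothelial and mural markers summed to at most 106 CPM and immune markers to at most 89.6 CPM in any library. In these bulk samples fewer cells of a type and less RNA per cell cannot be told apart.

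Upstream sequence is shown for 3 members whose unadjusted p was under 0.05 and whose window in the RefSeq promoter table (GRCm38.p6) held at least 150 bases before the gene start of GENCODE M21. Each stretch runs 5′ to 3′ on the gene's strand from 250 bases before the RefSeq start to the last base before the GENCODE start. Capitals mark letters of the motifs searched, on both strands.
Dusp5, chr19:53528895-53529108, plus strand: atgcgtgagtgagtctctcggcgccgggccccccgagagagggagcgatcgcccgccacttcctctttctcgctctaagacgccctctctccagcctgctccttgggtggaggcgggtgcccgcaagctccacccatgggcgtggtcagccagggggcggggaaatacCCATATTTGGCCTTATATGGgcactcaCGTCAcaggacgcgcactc
Fgfr3, chr5:33721474-33721673, plus strand: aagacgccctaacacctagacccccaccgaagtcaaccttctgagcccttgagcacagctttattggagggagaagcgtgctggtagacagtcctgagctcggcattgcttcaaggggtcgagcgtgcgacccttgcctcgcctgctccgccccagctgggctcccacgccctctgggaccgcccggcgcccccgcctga
Spry2, chr14:105896820-105897069, minus strand: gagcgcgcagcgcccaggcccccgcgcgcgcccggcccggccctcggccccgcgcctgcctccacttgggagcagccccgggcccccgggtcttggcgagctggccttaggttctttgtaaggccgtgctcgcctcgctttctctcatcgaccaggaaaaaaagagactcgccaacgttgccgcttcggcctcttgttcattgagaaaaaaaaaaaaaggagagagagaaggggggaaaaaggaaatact
The Dusp5 stretch holds 2 adjoining CArG boxes, the element bound by serum response factor, and 1 CRE half-site (TGACG), and the Fgfr3 and Spry2 stretches hold none of the letters searched. Of 32851 promoter windows of 300 bases in the RefSeq table, 1.63% hold a CArG box, 20.8% the CRE half-site, 14.9% the ETS letters CCGGAA, 7.81% the AP-1 letters TGANTCA and 14.2% the M-box core CATGTG. Of the 29 windows listed for 26 members, 1 holds a CArG box (Dusp5), 8 the CRE half-site, 6 the ETS letters, 0 the AP-1 letters and 3 the M-box core. The CRE half-site was present in windows of Braf, Map2k1, Dusp2, Dusp5, Dusp8, Dusp16, Spred2 and Ets2. The ETS letters were present in those of Fgfr4, Map2k1, Nf1, Rasa1, Dusp14 and Spry2, in Spry2 after the start. A match is a description of the letters only.

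For most members the values of Bmi1-deleted and control libraries overlapped. In edgeR's quasi-likelihood test, 0 of the 32 tested members passed at an adjusted p under 0.05, where 0.0937% of all 16011 tested genes did (0.0874% higher and 0.00625% lower), and the lowest adjusted p of a member was 0.425. DESeq2 and limma on the deposited TPM also called 0 members. Their backgrounds were 0.766% for DESeq2 (0.514% higher, 0.252% lower) and 0.025% for limma (0.0187% higher, 0.00625% lower). At an unadjusted edgeR p under 0.05 there were 5 members, Fgfr1, Dusp5, Dusp8 and Spry2 higher and Fgfr3 lower, or 15.6% of the members against 8.27% of all genes (4.82% higher, 3.45% lower). With the replicate number as a block, 1 member passed, Dusp4, which fell (background 2.41% in either direction, 1.71% higher and 0.706% lower). At an unadjusted p under 0.05 that fit had 9 of the 32 tested members, beside 12.3% of all genes (7.3% higher, 5.01% lower). They were the 5 named above with Dusp4, Spred1 and Etv4, which were lower, and Etv1, which was higher. The groups did not overlap for 2 members, Spry2 and Fgfr3, or 6.25% against 5.18% of all genes (2.79% higher, 2.39% lower). The median log2 change of the tested members was 0.08, against 0.01 for all genes, and 21 of 32 were above 0, beside 8118 of all 16011 genes.

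**Figure D1:**
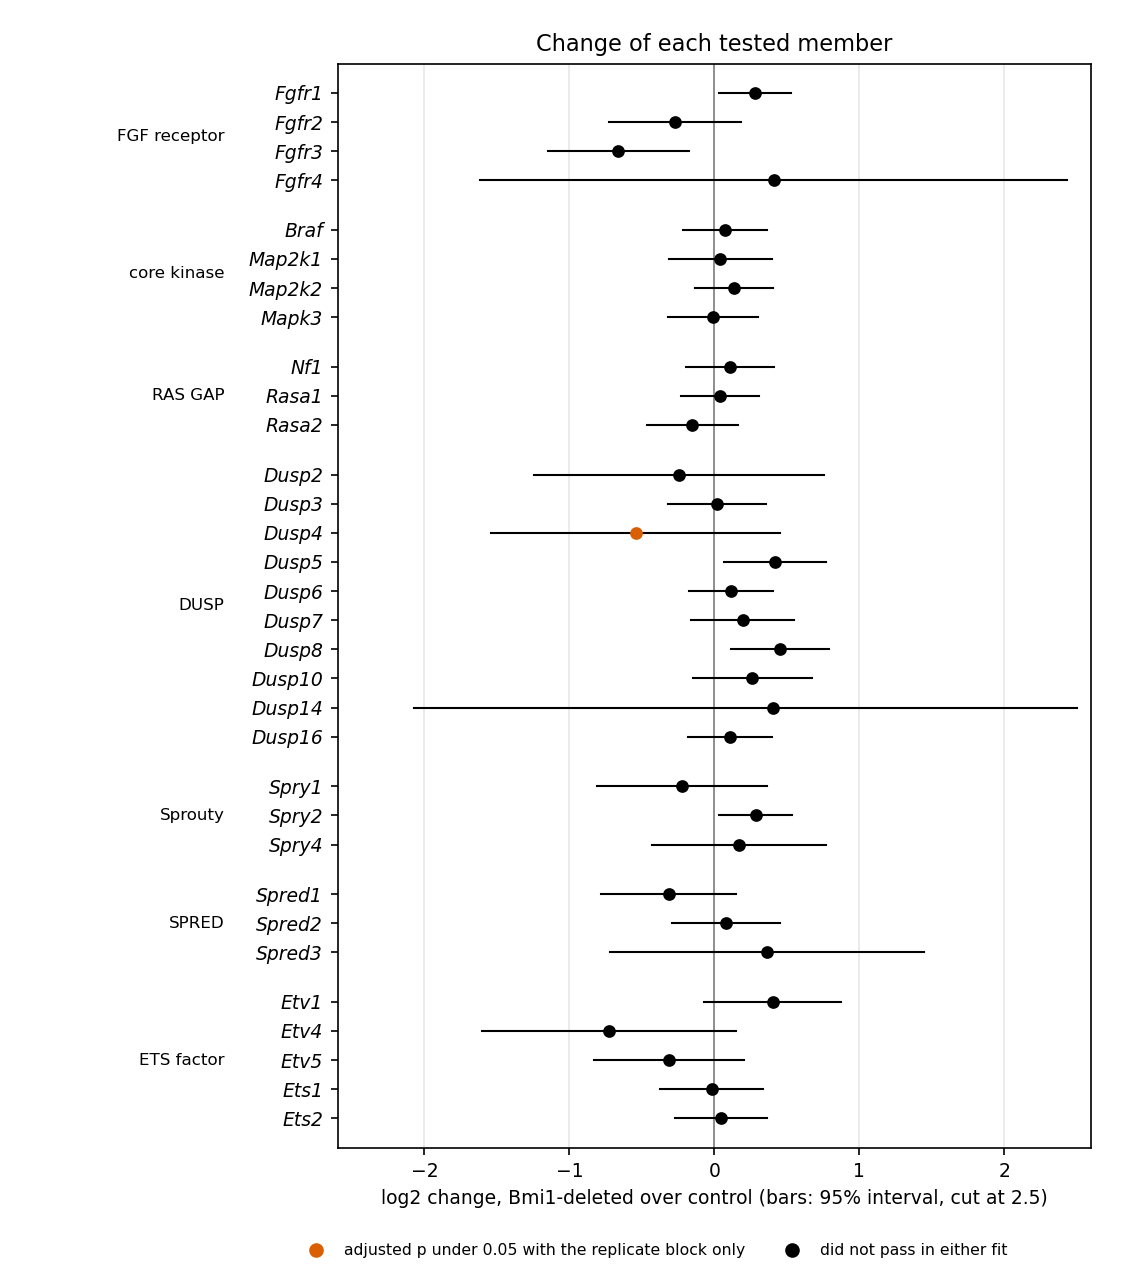
Fitted log2 change of each tested member, Bmi1-deleted over control, with its 95% interval (edgeR), grouped by role; the orange point passed only with the replicate block. The 4 core kinases sit between −0.01 and 0.14, and Dusp4, at −0.54, has one of the wide intervals.

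FGF receptors bind fibroblast growth factors at the cell surface and pass the signal to RAS. Fgfr1 was the most abundant receptor per transcript length, at 15.2 to 22.9 TPM in Bmi1-deleted and 13.1 to 26.9 TPM in control libraries. Its counts were 194, 189.6, 163.7 and 196.5 CPM in Bmi1-deleted libraries 1 to 4, against 174.1, 139.1, 152.7 and 147.0 CPM in control libraries 1 to 4. Bmi1-deleted libraries 1, 2 and 4 lay above every control and Bmi1-deleted 3 below control 1, and the deleted member of each same-numbered pair was higher in 4 of 4 (log2 change 0.28, SE 0.12, unadjusted p = 0.0308, adjusted p = 0.553). On the deposited log2 TPM the sign turned (−0.04), on a scale where the median of all genes was −0.14.

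Fgfr3 (ENSMUSG00000054252, mm10 chromosome 5, 33721674 to 33737068) went the other way. It had 12.02, 12.02, 10.9 and 11.9 CPM in Bmi1-deleted libraries 1 to 4, against 14.5, 21.3, 15.8 and 22.6 CPM in control libraries. Every Bmi1-deleted library was below every control library, and the mean was 63.1% of the control mean. The deleted group was tight (11.7 ± 0.546 CPM, SD, n = 4) and the control group wide (18.6 ± 4.02 CPM). The log2 change was −0.66 (SE 0.23, 95% interval −1.15 to −0.18), and it did not pass across all genes without the block (adjusted p = 0.425) or with it (adjusted p = 0.242).

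Fgfr2 had 39.6, 40.8, 25.7 and 30.5 CPM in Bmi1-deleted libraries 1 to 4, against 27.2, 41.7, 46.7 and 49.3 CPM in control libraries. Control 1 lay below 3 of the Bmi1-deleted libraries, so the groups overlapped (log2 change −0.27, SE 0.21, adjusted p = 0.828). In GENCODE M21 the span of Fgfr2, introns included, overlaps 69 other genes, and no source used here states whether counting used the strand. Whether any of them shares exon sequence with Fgfr2 was not examined, so an effect on its count is not known. Fgfr4 was nearly silent, at 0.113 to 3.48 CPM in Bmi1-deleted and 0.453 to 2.27 CPM in control libraries, where only a large difference would be detectable (95% interval −1.61 to 2.44 on the log2 scale).

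The core kinases differed little: the median size of their log2 changes was 0.06, against 0.23 over all genes tested. The latter covers genes with far fewer counts too, so the comparison is not matched for depth. Braf, the RAF kinase frequently mutated in melanoma, had 58.3, 58.3, 67.7 and 58.6 CPM in Bmi1-deleted libraries 1 to 4, against 62.4, 64.3, 53.4 and 51.0 CPM in control libraries. Map2k1 (MEK1) had 47.6, 44.1, 43.7 and 36.2 CPM in Bmi1-deleted libraries, against 38.8, 42.2, 34.1 and 51.6 CPM in control libraries. The groups overlapped for both kinases. Map2k2 (MEK2) had 89.5, 109.6, 102.8 and 107.4 CPM in Bmi1-deleted libraries, against 95.9, 78.8, 91.7 and 106.2 CPM in control libraries. Mapk3 (ERK1) had 63.9, 67.8, 61.8 and 53.2 CPM in Bmi1-deleted libraries, against 52.0, 57.1, 68.4 and 71.2 CPM in control libraries. These groups overlapped too, and the fitted log2 changes were 0.07 for Braf, 0.04 for Map2k1, 0.14 for Map2k2 and −0.01 for Mapk3. The 95% intervals of the 4 kinases lay between −0.32 and 0.41, and the lowest adjusted p was 0.872. An opposite-strand gene, Ndufb2, overlaps Braf with 1141 counts against 4402 for Braf over the 8 libraries.

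The RAS GTPase-activating proteins switch RAS off by speeding its hydrolysis of GTP. Nf1 (neurofibromin, chromosome 11, 79339693 to 79581612) had 487.4, 551.1, 468.9 and 428.1 CPM in Bmi1-deleted libraries 1 to 4, against 526.5, 511.1, 375.3 and 383.3 CPM in control libraries. Libraries 1 and 2 were the higher ones of each group, and the groups overlapped (log2 change 0.11, SE 0.14, adjusted p = 0.92). Rasa1 had 125.7, 133.2, 146.7 and 109.1 CPM in Bmi1-deleted libraries 1 to 4, against 108.3, 125.1, 132.4 and 134.6 CPM in control libraries. The groups overlapped (log2 change 0.04, SE 0.13, adjusted p = 0.976), and Rasa1 has an opposite-strand overlap with Ccnh (1202 counts against 9422 for Rasa1). Rasa2 averaged 59.1 ± 8.10 and 65.7 ± 7.28 CPM in Bmi1-deleted and control libraries (log2 change −0.15, adjusted p = 0.876).

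Among the phosphatases, Dusp4 alone passed a test, and only with the block, which takes equal replicate numbers as an unlabelled pairing. DUSP4 is a nuclear phosphatase of ERK and other MAP kinases whose gene is switched on by ERK signalling. Dusp4 (ENSMUSG00000031530, chromosome 8, 34807297 to 34819894) had 54.2, 64.3, 118.0 and 141.6 CPM in Bmi1-deleted libraries 1 to 4, against 81.7, 85.2, 185.2 and 198.6 CPM in control libraries. The groups overlapped, because libraries 3 and 4 were far above 1 and 2 in each group, but within each of the 4 same-numbered pairs the Bmi1-deleted library was lower. Libraries 3 and 4 averaged 1.16 higher than 1 and 2 on the log2 scale, more than the log2 change of −0.54 between genotypes (SE 0.43). Without the block the gene did not pass (adjusted p = 0.84), and with the block it fell by 0.53 on the log2 scale (SE 0.11, adjusted p = 0.0128).

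With the block and 1 pair left out, it passed without pair 1 (adjusted p = 0.044) and not without pair 2 (adjusted p = 0.0542), pair 3 (adjusted p = 0.104) or pair 4 (adjusted p = 0.0519), with log2 changes of −0.58 to −0.50. Replicates 1 and 2 alone gave −0.49 (adjusted p = 0.261) and replicates 3 and 4 alone −0.58 (adjusted p = 0.219).

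Most melanocyte markers had the Dusp4 pattern. Dct, an enzyme gene of melanin synthesis, had 2092, 1966, 4086 and 4734 CPM in Bmi1-deleted libraries 1 to 4, against 3798, 4020, 5718 and 6451 CPM in control libraries. Mitf, the master regulator of the lineage, had 404.2, 376.3, 721.9 and 830.6 CPM in Bmi1-deleted libraries, against 675.1, 784.8, 1037 and 1148 CPM in control libraries. As for Dusp4, libraries 3 and 4 of each group were the high ones. Of the 10 melanocyte markers 8 fell with the block, beside 0.706% of all genes. The other two, both transcription factors, did not pass: Pax3 had a log2 change of −0.34 with the block (adjusted p = 0.13), and Sox10 had 0.16 (adjusted p = 0.588) and was higher in 3 of 4 pairs. With the block 5 of 12 fibroblast markers (11 tested), 4 of 6 Schwann cell markers and 2 of 8 keratinocyte markers rose, beside 1.71% of all genes. The keratinocyte markers that rose were Krt1 and Itga6, and the others did not go one way. Trp63 was lower in 4 of 4 pairs (log2 change −0.41 with the block, adjusted p = 0.167). With the block Krt5 and Krt14 had −0.17 and −0.08, and Krt15, Krt10 and Dsp 0.006, 0.54 and 0.20. With the fibroblast marker score of each library as a covariate Dusp4 had 0.14 (adjusted p = 0.921), and with the block and that score −0.49 (adjusted p = 0.191). With the melanocyte marker score it had 0.48 (adjusted p = 0.411), and with the block and that score −0.76 (SE 0.379, adjusted p = 1). The fit with both called 0 of all 16011 genes higher and 0 lower, and the SE of Dusp4 was 0.11 with the block alone. Its adjusted p therefore does not show that the Dusp4 difference was absent. The part of cell composition in the Dusp4 difference was not tested.

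**Figure D2:**
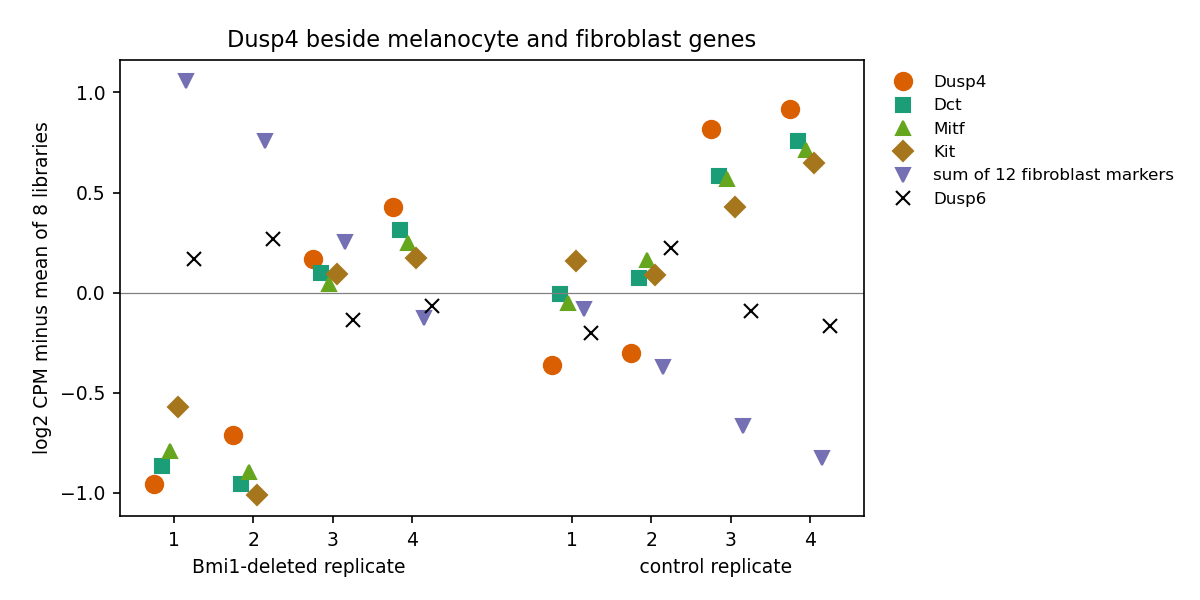
Dusp4, Dusp6, 3 melanocyte genes and the summed fibroblast markers in each library, as log2 CPM minus the mean of the 8 libraries; Bmi1-deleted replicates are on the left and control replicates on the right. Dusp4 and the melanocyte genes are lower in libraries 1 and 2 than in 3 and 4 of each group, and the fibroblast sum is higher there.

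Dusp6, the cytoplasmic ERK phosphatase used as a readout of ERK activity, was the most abundant phosphatase per length. It had 237.6, 254.9, 192.3 and 201.7 CPM in Bmi1-deleted libraries 1 to 4, against 183.8, 247.2, 198.8 and 188.3 CPM in control libraries. The groups overlapped (log2 change 0.12, SE 0.13, 95% interval −0.17 to 0.41, adjusted p = 0.908). It did not share the Dusp4 pattern: libraries 3 and 4 averaged 0.23 below 1 and 2 on the log2 scale (a difference of −0.23).

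Dusp5, a nuclear ERK-specific phosphatase, and Dusp8, which acts mainly on JNK and p38, were higher in each of the 4 same-numbered pairs. Dusp5, whose upstream stretch is printed above, had 70.8, 68.8, 50.7 and 69.4 CPM in Bmi1-deleted libraries 1 to 4, against 57.7, 53.8, 43.0 and 39.7 CPM in control libraries. Bmi1-deleted 3 lay below controls 1 and 2, so the groups overlapped (log2 change 0.42, SE 0.16, unadjusted p = 0.0234, adjusted p = 0.516). Dusp8 had 49.2, 45.1, 53.3 and 39.0 CPM in Bmi1-deleted libraries, against 32.4, 31.1, 39.5 and 33.3 CPM in control libraries. Only Bmi1-deleted 4 fell below a control, control 3 (log2 change 0.45, SE 0.16, unadjusted p = 0.0121, adjusted p = 0.431). In all, 5 of 32 members were higher and 3 lower in all 4 pairs (backgrounds 11% higher and 9.51% lower).

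The remaining phosphatases showed no call in either fit. Dusp7, a cytoplasmic ERK phosphatase, averaged 87.4 ± 20.9 CPM in Bmi1-deleted and 76.3 ± 7.75 CPM in control libraries. Dusp10 and Dusp16, phosphatases of JNK and p38, averaged 31.5 ± 6.20 and 50.03 ± 4.98 CPM in Bmi1-deleted libraries and 26.3 ± 3.56 and 46.5 ± 1.04 CPM in control libraries. Dusp3, a small atypical phosphatase, averaged 47.3 ± 7.40 and 46.7 ± 5.58 CPM in Bmi1-deleted and control libraries. Their log2 changes were 0.20, 0.26, 0.11 and 0.02. Dusp2, an inducible nuclear phosphatase known from immune cells, had 1.89 to 5.22 CPM in Bmi1-deleted and 2.68 to 6.38 CPM in control libraries.

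Dusp14 had 1.59 to 3.64 CPM in Bmi1-deleted libraries, against 4.43 and 2.35 CPM in controls 2 and 3 and 0 counts in controls 1 and 4, where 3 counts would be 0.322 and 0.338 CPM. Dusp9 was below the count filter, with 2, 9, 12 and 0 counts in Bmi1-deleted libraries 1 to 4 and 3, 0, 3 and 6 counts in control libraries. Neither gene can show any but a large difference at this depth.

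**Figure D3:**
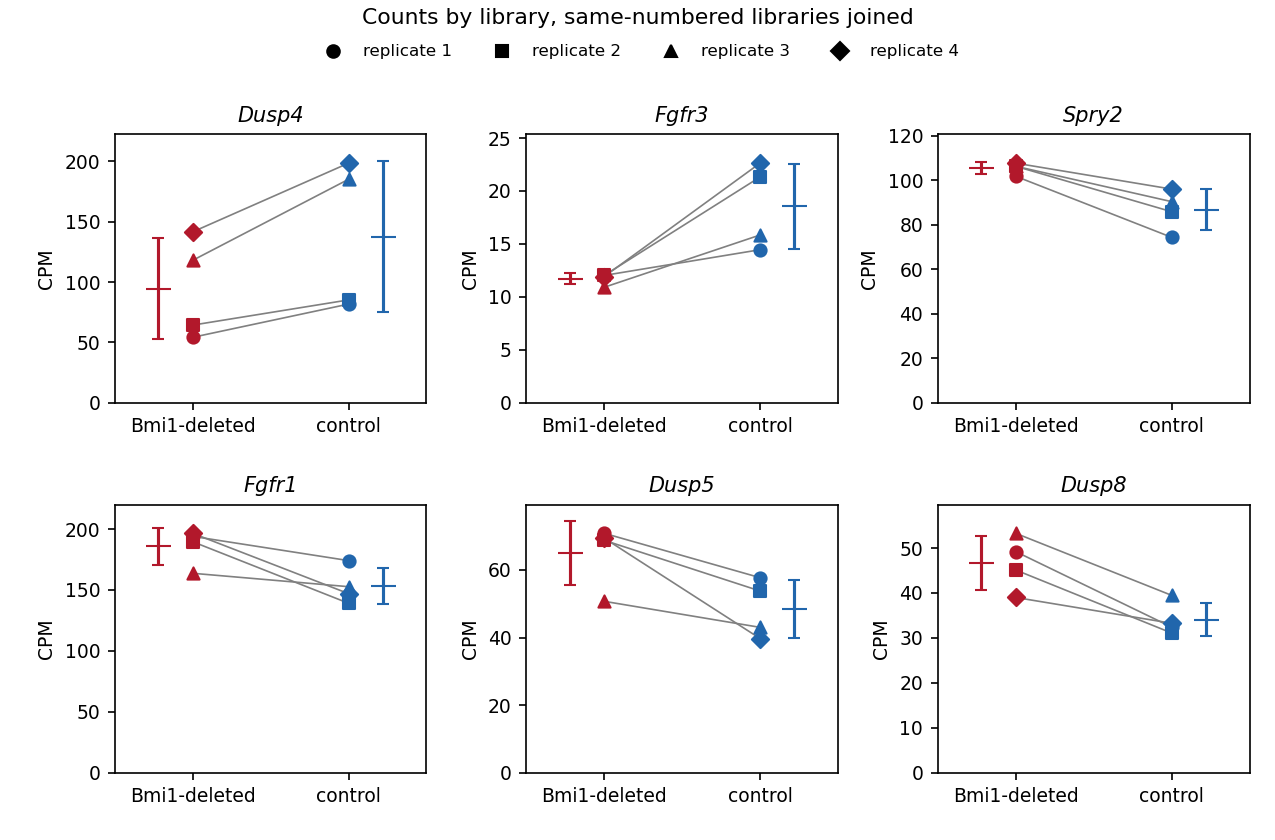
CPM of the 6 members with an unadjusted p under 0.05 without the block or a call with it. Grey lines join same-numbered libraries, and bars give the mean and SD of 4 libraries. Every line runs the same way within a panel, while the groups are fully apart only for Fgfr3 and Spry2.

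Sprouty proteins are induced by receptor tyrosine kinase signalling and damp it between receptor and RAF. Spry2 (ENSMUSG00000022114, chromosome 14, 105891947 to 105896819) was the most abundant of the 4. It had 101.7, 106.2, 106.2 and 107.6 CPM in Bmi1-deleted libraries 1 to 4, against 74.3, 85.8, 90.3 and 95.9 CPM in control libraries. Every Bmi1-deleted library was above every control library, by means of 105.4 ± 2.56 and 86.6 ± 9.19 CPM (SD, n = 4 each). The log2 change was 0.28 (SE 0.12, 95% interval 0.03 to 0.53), and it did not pass across all genes without the block (adjusted p = 0.544) or with it (adjusted p = 0.266).

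Spry1 had 27.5, 49.6, 25.6 and 31.3 CPM in Bmi1-deleted libraries 1 to 4, against 46.0, 54.5, 25.7 and 30.2 CPM in control libraries. Library 2 was the highest of each group, and the groups overlapped (log2 change −0.22, SE 0.27, adjusted p = 0.911). Spry4 had 10.2 to 22.2 CPM in Bmi1-deleted and 10.9 to 16.3 CPM in control libraries (log2 change 0.17, adjusted p = 0.941). Spry3 was practically silent, with 3 counts in Bmi1-deleted 1, 1 count in control 2 and 0 in the other 6 libraries.

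SPRED proteins bind neurofibromin and bring it to RAS at the membrane. Spred1 was the most abundant, with 220.4, 196.3, 310.3 and 287.7 CPM in Bmi1-deleted libraries 1 to 4, against 213.9, 305.7, 300.3 and 443.3 CPM in control libraries. The groups overlapped and 2 pairs went each way (log2 change −0.32, SE 0.21, adjusted p = 0.792, 0.372 with the block). Spred2 had 54.3, 41.8, 41.8 and 47.3 CPM in Bmi1-deleted libraries 1 to 4, against 49.7, 38.9, 33.8 and 52.7 CPM in control libraries. Library 3 was the lowest of each group, and the groups overlapped (log2 change 0.08, adjusted p = 0.96). Spred3 ranged from 2.98 to 20.2 CPM in Bmi1-deleted and from 4.89 to 9.62 CPM in control libraries (log2 change 0.36, SE 0.50).

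The ETS factors are transcriptional targets and effectors of ERK. Ets1 was the most abundant member per length, ranking first of the 34 genes in each of the 8 libraries, at 38.8 to 52.1 TPM in Bmi1-deleted and 49.7 to 64.5 TPM in control libraries. Its counts were 396.6, 371.4, 591.9 and 556.4 CPM in Bmi1-deleted libraries 1 to 4, against 449.9, 425.2, 491.8 and 574.6 CPM in control libraries. The groups overlapped, and libraries 3 and 4 were the higher ones of each group (log2 change −0.02, SE 0.16, adjusted p = 0.989). Ets2 had 153.3, 139.7, 98.1 and 116.0 CPM in Bmi1-deleted libraries, against 109.4, 133.9, 116.0 and 132.3 CPM in control libraries (log2 change 0.05, adjusted p = 0.977).

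The PEA3 factors Etv1, Etv4 and Etv5, classic responders to FGF signalling, did not go one way. Etv1 was higher in each of 4 pairs, at 59.2 ± 15.95 CPM in Bmi1-deleted and 44.9 ± 12.5 CPM in control libraries (log2 change 0.40, SE 0.22, adjusted p = 0.688). Etv4 was lower in each of 4 pairs, at 8.07 ± 4.48 CPM in Bmi1-deleted and 13.4 ± 5.82 CPM in control libraries (log2 change −0.73, SE 0.41, adjusted p = 0.703). Etv5 stood at 26.4 ± 3.50 and 32.8 ± 12.9 CPM in Bmi1-deleted and control libraries (log2 change −0.31, SE 0.24, adjusted p = 0.825). All 3 had overlapping groups.

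**Figure D4:**
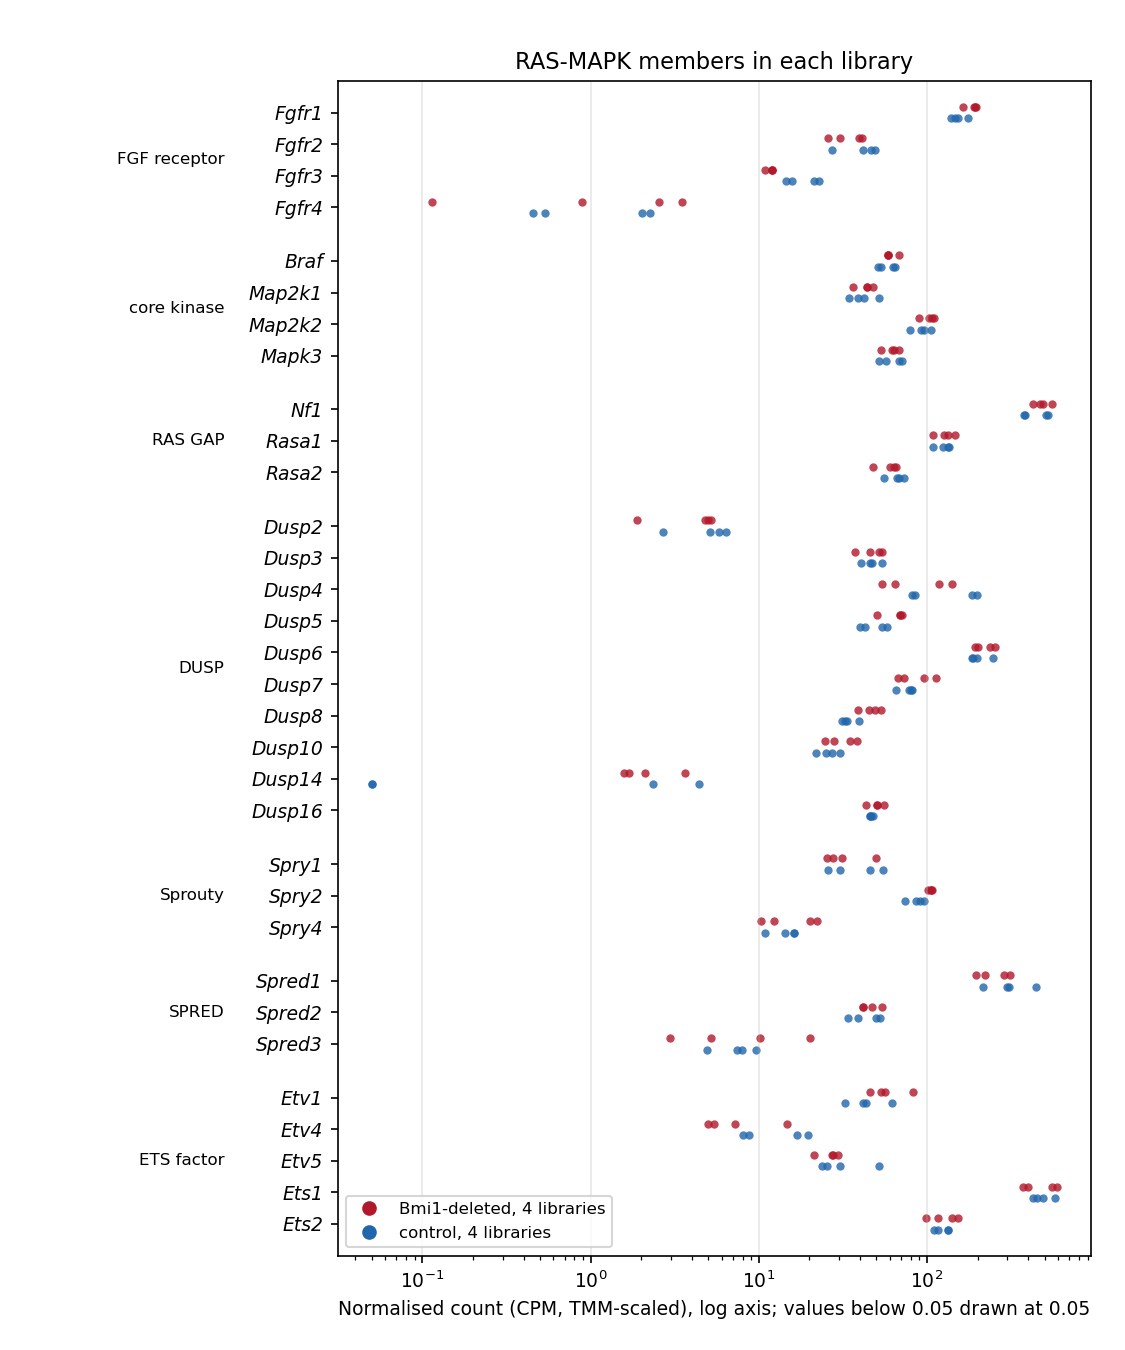
TMM-scaled CPM of the 32 tested members in every library, on a log axis, grouped by role, with Bmi1-deleted libraries drawn above control libraries of the same gene. For most members the 2 rows of points overlap; Spry2 and Fgfr3 are the exceptions.

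Set against each other, the feedback genes (DUSP, Sprouty and SPRED) and the core kinases differed little. The median log2 change of the 16 tested of 18 feedback genes was 0.14, with 12 above and 4 below 0, and that of the 4 core kinases 0.06, beside 0.01 for all genes. Of all 16011 genes, 8118 were above 0. In the 4 same-numbered pairs the median difference of the feedback genes was 0.25, 0.07, 0.02 and 0.08 on the log2 scale, and that of the core kinases 0.10, 0.15, 0.25 and −0.20. The spread between pairs (SD 0.101 for feedback genes and 0.196 for kinases) was larger than the distance between the 2 medians. With the fibroblast score as a covariate the feedback median was 0.0005, and in replicates 3 and 4 alone it was 0.01. On the log2 TPM it was −0.12, where all genes had −0.14. Single feedback genes ranged from −0.54 (Dusp4) to 0.45 (Dusp8), while single kinases ranged from −0.01 to 0.14.

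Levels can be compared between genes per length in the deposited TPM, although a predicted gene, Gm23935, took 82.7% to 85.6% of the TPM in Bmi1-deleted and 73.8% to 85.5% in control libraries. Below Ets1 came Dusp6, at 19.3 to 28.2 TPM in Bmi1-deleted and 17.3 to 42.7 TPM in control libraries, then Map2k2, Ets2, Nf1, Fgfr1 and Spred1. Their ranks varied between libraries from 2 to 10, so the order among these 6 was not resolved. Mapk3 and Spry2 followed, with ranks of 7 to 11, and Dusp4 ranked from 3 to 15. Braf stood at 3.28 to 4.67 TPM in Bmi1-deleted and 2.29 to 5.87 TPM in control libraries, below both MEK genes in mean TPM.

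**Figure D5:**
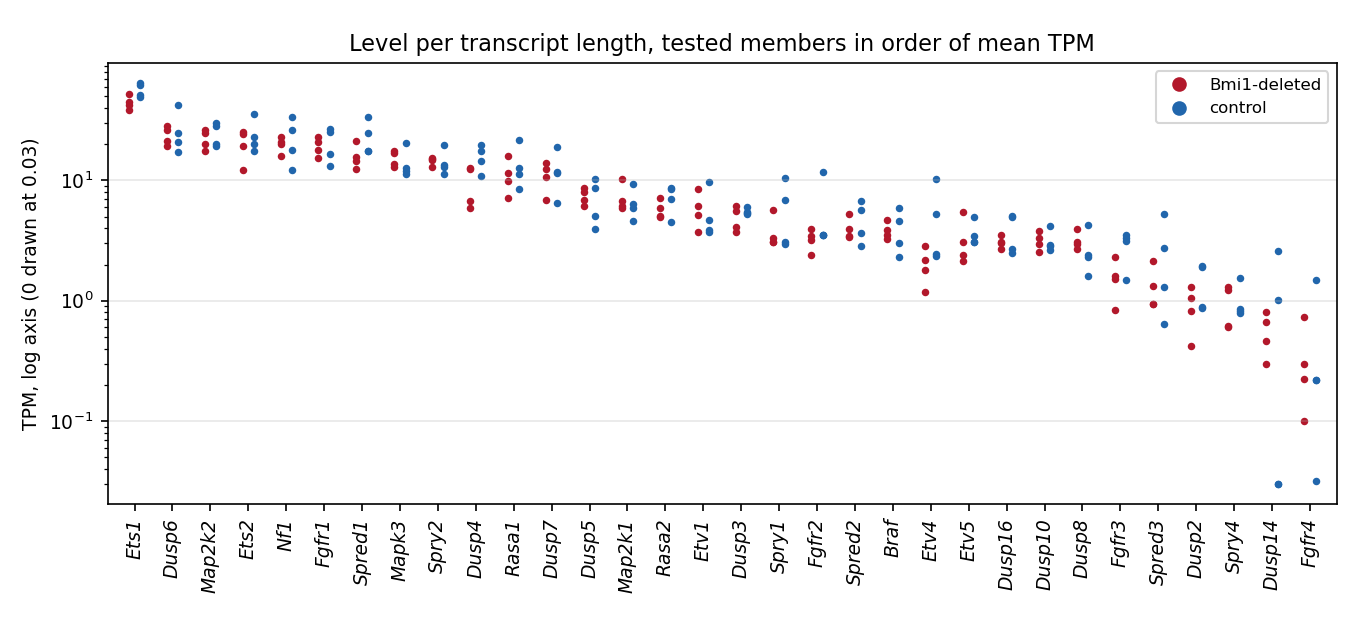
Deposited TPM of the tested members in each library, on a log axis, ordered by the mean of 8 libraries, with Bmi1-deleted libraries left of control libraries. Ets1 is the highest in each library, and the next 6 genes overlap one another.

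Other genes of the pathway, 59 listed by role, were not called. Of the 55 tested, 0 passed without the block and 0 with it, where 0.0937% and 2.41% of all genes did, and 5 had an unadjusted edgeR p under 0.05 without it, 9.09% beside 8.27% of all genes. Of 7 FGF ligands 6 were tested. Fgf2 had 43.5 to 72.3 CPM in Bmi1-deleted and 25.5 to 59.3 CPM in control libraries (log2 change 0.39, adjusted p = 0.781). Of 5 other feedback genes all 5 were above 0 (median 0.16), beside 8118 of all 16011 genes, with 0 passing. Il17rd, an FGF antagonist known as Sef, had the lowest adjusted p of them, 0.604, and groups that did not overlap, at 66.5 to 80.2 CPM in Bmi1-deleted and 53.4 to 63.2 CPM in control libraries. Of the 55 genes 7 had groups that did not overlap, 12.7% beside 5.18% of all genes.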

How the data were processed

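The authors deposited estimated counts per gene as whole numbers, with Salmon 1.2.1 and mm10 named in the submitters' processing notes, and a table of log2 values, which undo to TPM that sum to 1000000 in each library. For annotation, bias correction, strand setting and rounding: not given in the sources used here. RNA came from sorted cells, and the labels' protocols give a stranded kit with 2 rounds of PCR and name no molecular identifiers, so counts include PCR copies and a floor of 3 counts covers counting error only. Names and positions came from GENCODE M21 (54166 of 54418 identifiers named).

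Counts were filtered with filterByExpr, scaled by TMM and tested over 16011 genes with edgeR 4.0.16 in R 4.3.3 (quasi-likelihood test with robust dispersion, two-sided) with Benjamini-Hochberg adjustment at 0.05. The method was tested on simulated data, drawn with no replicate effect, so that test says nothing about the pairing. Standard errors came from the F statistic. CPM are TMM-scaled, and floors are unscaled. The score of a marker list is its mean log2 CPM with a prior count of 2. Motifs and overlaps were searched by position in RefSeq and GENCODE tables. Overlaps are of whole gene spans, and shared exons were not examined. Alternatives were DESeq2 1.42.0 and its size factors, 2 other count filters, limma 3.58.1 on the log2 TPM, a fibroblast covariate and leaving out libraries.

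After centring within genotype, same-numbered libraries correlated across genes at 0.124, 0.186, 0.147 and 0.18. Every pair was over 0.1, and the shared numbers in the titles were read as a pairing, which no labelled litter or day backs. Libraries with different numbers were not compared in this way, so the correlations cannot show that equal numbers belong together. A blocked fit on that number was run beside the unblocked one, and its value is given where it changes a call. Replicates 1 and 2 lay apart from 3 and 4 on principal component 1, with 27.2% of the variance. Whether that split alone gave the correlations was not tested.

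Values in every library were given for members that passed either fit, members with separated groups, the core kinases and the 2 members of each role with the highest mean TPM; Fgfr1, Dusp5, Dusp8, Fgf2 and Il17rd were described further after their values were seen. The members and lists were chosen with earlier results of these data known. Single values of some pathway genes outside the members are not reported here.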

Additional observations from a re-analysis of the deposited data

Results flagged for a closer look

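In 4 of 64 groups of 4 libraries a single library stood apart from the other 3 (gap over range above 0.829); chance flags about 1 in 20 such groups. Bmi1-deleted 3 was the library in 3 of them. It had 10.9 CPM of Fgfr3 where the other 3 had 11.9 to 12.02, 67.7 CPM of Braf where the others had 58.3 to 58.6, and 50.7 CPM of Dusp5 where the others had 68.8 to 70.8. Without Bmi1-deleted 3 the groups of Dusp5 did not overlap. Bmi1-deleted 2 had 1.89 CPM of Dusp2 where the others had 4.78 to 5.22.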

How the results depend on the processing

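Of the 2 counts of members past the threshold, that of members lower went to 1 (Dusp4) with the replicate block on the pairing and to 0 to 1 with a pair left out of that fit; the block changed no other member's call. DESeq2 or its size factors in edgeR, no count filter, a filter of 10 CPM in 4 libraries and each library left out all gave 0 members. Over all genes, DESeq2 called 106 higher and 52 lower of 20637, and its size factors 17 and 3 of 16011. No filter called 259 and 121 of 34973, and the 10 CPM filter 16 and 2 of 9239. With a library left out the most were called without control 1, 40 and 5 of 16782. With so few genes called, 0 members does not show that the result is stable.

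The feedback median was −0.124 in limma on log2 TPM, 0.000542 with the fibroblast score and 0.0123 in replicates 3 and 4 alone. The medians of all genes in these settings were −0.138, −0.0139 and −0.00877. Members with separated groups numbered 0 in limma, 2 to 4 with a library left out, 3 to 6 with a pair left out (5 without pair 1 and without pair 3), 18 in replicates 1 and 2 alone and 15 in replicates 3 and 4 alone, where groups of 2 separate easily. The share over all genes was counted only for the CPM of all 8 libraries (5.18%). Without such a share for these settings, their counts are not a result about the members.

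Signs turned for members that passed no test without the block; the cause was not tested. The lists give first the 17 members described in every library by rule, then the others that turned. In limma on log2 TPM the median log2 change of all genes was −0.138, against 0.0062 in the edgeR fit without the block. A limma value between −0.138 and 0 therefore lies above the median of all genes. In limma on log2 TPM the log2 changes were Fgfr1 −0.0414, Map2k2 −0.13, Mapk3 0.128, Nf1 −0.0829, Rasa1 −0.24, Dusp6 −0.0807, Spred2 −0.157 and Ets2 −0.231, then Fgfr4 −0.0833, Dusp3 −0.175, Dusp7 −0.0899, Dusp14 −0.0836, Dusp16 −0.197, Spry4 −0.0513 and Spred3 −0.423. With the fibroblast score they were Map2k1 −0.105, Nf1 −0.0543, Rasa1 −0.0017, Dusp4 0.135, Dusp6 −0.0177, Ets1 0.219 and Ets2 −0.119, then Fgfr4 −2.08, Dusp3 −0.0909, Dusp7 −0.033, Dusp14 −0.0101 and Spry4 −0.175. In replicates 1 and 2 alone they were Fgfr2 0.223, Braf −0.12 and Mapk3 0.272, then Spred3 −0.593, and in replicates 3 and 4 alone Map2k1 −0.124, Rasa1 −0.0817, Spry1 0.00351, Ets1 0.0856 and Ets2 −0.235, then Dusp3 −0.201, Dusp7 −0.194 and Spry4 −0.457. With the melanocyte score, chosen after seeing the data like both scores combined with the block, Dusp4 had 0.485; only Dusp4 and the counts of members are given for these added settings.

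Among the 17, with a library left out the ranges that crossed 0 were Map2k1 −0.0438 to 0.16, Mapk3 −0.0841 to 0.0607, Rasa1 −0.0349 to 0.105, Spred2 −0.026 to 0.181, Ets1 −0.144 to 0.0787 and Ets2 −0.0592 to 0.144. With the block and a pair left out they were Braf −0.0171 to 0.146, Map2k1 −0.0537 to 0.232, Mapk3 −0.105 to 0.128, Rasa1 −0.0207 to 0.145, Ets1 −0.144 to 0.0105 and Ets2 −0.123 to 0.117; within these, Map2k1 had −0.0306 and Ets1 0.00852 without pair 1, and Mapk3 0.0398 and Rasa1 −0.00233 without pair 3. Depth limits Fgfr4, Dusp2, Dusp9, Dusp14, Spry3 and Spred3, where counts are low.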
